A study of Arabidopsis thaliana with 4 samples.

Results

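The tapetum is the innermost cell layer of the anther wall, and the genes described here are 10 loci of Arabidopsis that act in it or are products of it. They comprise 5 regulators (*DYT1*, *TDF1*, *AMS*, *MYB80* and *MS1*) and 5 genes for secreted proteins (*A9*, *ATA7*, *EXL4*, *EXL5* and *EXL6*), taken by locus identifier out of the 27206 loci measured. Their transcripts were counted by RNA-Seq in 4 libraries, 2 from wild-type plants and 2 from the *stk* mutant, both of the Columbia ecotype and each a biological replicate, and compared between the genotypes. *STK* encodes a MADS-box transcription factor of ovules and seed coat, and the mutant carries an insertion beside a splice site of that gene. All plants were grown at 22°C in short or long days. RNA came from inflorescences, with flowers from early stages of development on, and from siliques up to 5 days after pollination. Anthers were therefore only a part of each sample.

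The tapetum feeds the developing microspores, secretes the enzymes that free them and the precursors of the pollen wall, and finally breaks down to leave its lipids and proteins on the pollen surface as the pollen coat. In Arabidopsis its differentiation passes along a chain of transcription factors, in which DYT1 acts early, TDF1 and AMS follow, and MYB80 and MS1 act late. Among the secreted proteins, the lipases of the pollen coat are made near the end of this chain. A9 and ATA7 belong to the family of small proteins around the lipid transfer proteins, and the EXL proteins are extracellular lipases of the GDSL type found in the pollen coat.

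The values are RPKM, reads scaled to the length of the exons and to the library total, and the gene models of a locus were added together. The library totals recovered from the spacing of these values amounted to 16966008 and 21075053 reads (wild-type replicates 1 and 2) and to 30564145 and 33673015 reads (*stk* replicates 1 and 2). The limit that a count of 0 allows, 3 reads, corresponded to between 0.0891 and 0.177 RPKM for 1 kb of exons, counting error only. According to the library names in the file headers, *stk* replicate 1 was sequenced in lane 7 and the other 3 libraries in lane 1, whereas the series description speaks of a single lane. *STK* itself had 38.7 and 40.9 RPKM in wild type against 7.91 and 7.96 RPKM in *stk*, that is a log2 fold change of -2.19 (SE 0.13, adjusted p = 0.0884, limma and Benjamini-Hochberg). The mutated gene was therefore lower in both libraries labelled *stk*, although its adjusted p lay above 0.05.

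*EXL4*, *EXL6* and *ATA7* carry in their upstream sequence the short motif that bHLH transcription factors such as DYT1 and AMS recognise, the E-box CANNTG, and these sequences are shown for that reason. They run 5′ to 3′ on the coding strand up to the base before the annotated gene start, with the E-box in capitals. They were read from the TAIR10.1 assembly of RefSeq, whose chromosome coordinates are those of TAIR10.
*EXL4*, chr1:28501255-28501433, plus strand: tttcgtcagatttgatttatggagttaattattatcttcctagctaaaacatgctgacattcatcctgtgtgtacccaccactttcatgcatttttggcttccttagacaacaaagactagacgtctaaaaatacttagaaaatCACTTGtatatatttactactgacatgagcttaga
*EXL6*, chr1:28507822-28508071, plus strand: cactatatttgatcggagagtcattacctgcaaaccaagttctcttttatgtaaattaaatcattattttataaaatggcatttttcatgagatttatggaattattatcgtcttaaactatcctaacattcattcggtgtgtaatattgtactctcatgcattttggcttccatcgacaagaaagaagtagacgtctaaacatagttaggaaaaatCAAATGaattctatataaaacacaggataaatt
*ATA7*, chr4:14043690-14043939, plus strand: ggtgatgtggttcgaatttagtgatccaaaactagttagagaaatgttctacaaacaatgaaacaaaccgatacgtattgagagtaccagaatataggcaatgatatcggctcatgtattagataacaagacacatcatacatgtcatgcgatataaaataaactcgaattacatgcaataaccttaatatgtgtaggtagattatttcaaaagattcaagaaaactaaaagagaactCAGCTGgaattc
The sequence of *EXL4* stops after 179 bases because the neighbouring gene *EXL3* ends there. The E-box starts 35 bases before the gene start of *EXL4*, 33 before that of *EXL6* and 12 before that of *ATA7*. *EXL4* and *EXL6* also share the run tagacgtctaaa, which starts 61 bases before both genes, and the shorter runs tcatgcatttt and ttttggcttcc further upstream. Among the other members, *MS1* has 1 E-box in the 250 bases before its start, and *DYT1*, *TDF1*, *AMS*, *MYB80*, *A9* and *EXL5* have 0. For *EXL5* the window lies before the annotated gene start at 28504041, while its main measured model starts at 28504452. The bases directly before that model were not searched. An E-box, which reads the same on both strands, stands in 55.3% of the 27443 such windows of the genome, so that its presence is common. The CArG box, the motif of MADS-box proteins such as STK, was searched on both strands as CCWWWWWWGG (W for A or T), without mismatch. It has 0 matches in the windows of all 10 members, against 2.52% of all windows. The paper's own search for its targets was wider. It allowed a mismatch and took in sequence further upstream, the gene itself and sequence downstream, none of which was searched here for the members. A match in these letters is a description of the sequence and not a binding site.

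The most abundant of the 10 transcripts was *EXL4*, with 260 ± 65.4 RPKM in wild type (SD, n = 2 here and for the other group means). *ATA7* had 95.7 ± 14.6 and *EXL6* 81.8 ± 17.1 RPKM, and the libraries of these 2 genes overlapped. *AMS* (28.9 ± 6.79), *A9* (27.4 ± 4.89) and *EXL5* (21.7 ± 8.59) formed the next step and likewise overlapped. *MYB80* and *MS1* followed with 2.63 ± 1.13 and 2.56 ± 0.10 RPKM, then *TDF1* with 1.24 ± 0.52 RPKM and *DYT1* with 0.18 ± 0.15 RPKM. In the wild-type means all the secreted-protein genes except *A9* and *EXL5* therefore stood above every regulator, and *AMS* was the only regulator at the level of a secreted-protein gene. In the *stk* means *EXL4*, *ATA7* and *EXL6* were again the highest, but *AMS* (17.8 and 14.7 RPKM) came after *A9* (75.3 and 18.4 RPKM), without overlap, and after *EXL5*, with overlap. There also *MS1* (2.03 and 2.34 RPKM) lay above *MYB80* (1.23 and 1.53 RPKM) without overlap.

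**Figure D1:**
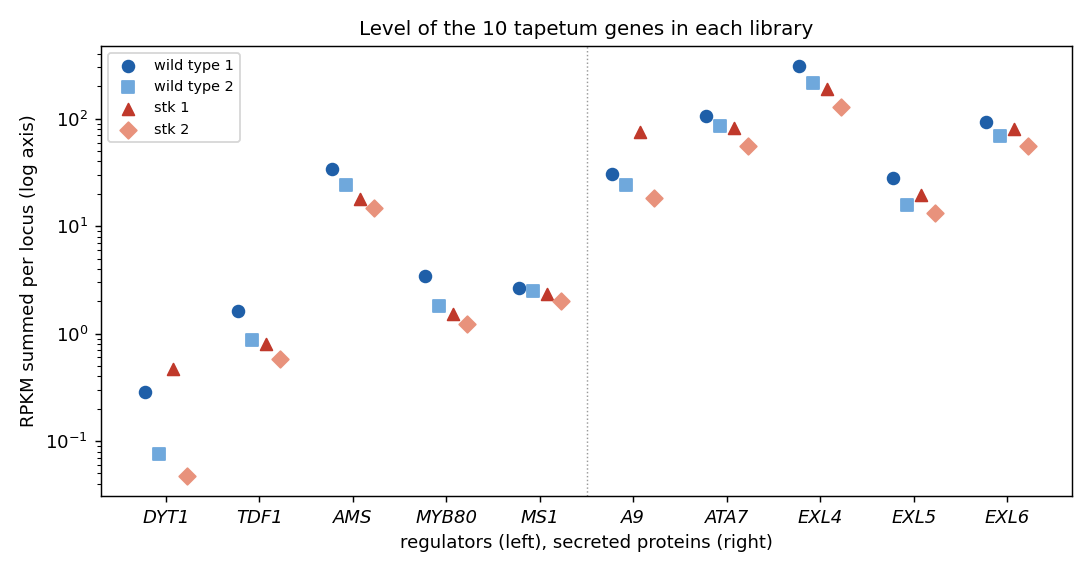
RPKM summed per locus (log axis) of the 10 tapetum genes in each library, with regulators to the left and secreted proteins to the right of the dotted line. Levels span from 0.0476 RPKM for *DYT1* to 307 RPKM for *EXL4*, wild-type replicate 1 is above replicate 2 for every gene, and *stk* replicate 1 stands far above the other libraries for *A9*.

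The 2 genes at the head of the chain were at the edge of what these libraries could measure. *DYT1*, a bHLH factor needed for the young tapetum (AT4G21330, chromosome 4, 11349922 to 11350694, plus strand), had 0.283 and 0.076 RPKM in wild type against 0.472 and 0.0476 RPKM in *stk*. These values are 3 and 1 reads against 9 and 1 reads. The exact 95% Poisson interval of the 9 reads runs from 0.216 to 0.896 RPKM and that of the 3 reads from 0.0584 to 0.828 RPKM. The groups overlapped, and no difference was detectable at this depth. *TDF1*, the R2R3-MYB factor that DYT1 activates (AT3G28470, chromosome 3, 10674508 to 10675724, minus strand), had 1.61 and 0.88 RPKM in wild type against 0.798 and 0.579 RPKM in *stk*, from 28 and 19 against 25 and 20 reads. Both *stk* libraries were below both wild-type libraries. With a mean under 1 RPKM over the 4 libraries, both genes stayed outside the comparison, which covered 19044 loci and 8 of the 10 members. The paper describes flowers from stage 9 on, and the part of stage or of depth in these low levels was not tested.

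*AMS* (AT2G16910) was lower in both *stk* libraries. This bHLH factor, needed for tapetal function and pollen wall formation, lies on chromosome 2 from 7331721 to 7334254 on the plus strand and has 8 exons. It had 33.7 and 24.1 RPKM in wild type against 17.8 and 14.7 RPKM in *stk*, from between 937 and 1082 reads in each library. The groups did not overlap, and the *stk* mean of 16.2 ± 2.17 RPKM was 0.562 times the wild-type mean. In RPKM, the wild-type replicates differed by more than wild-type replicate 2 differed from either *stk* library. As a ratio this held only against *stk* replicate 1. On the scale of log2(RPKM + 1), which understates changes of weakly expressed genes, the log2 fold change was -0.78 (SE 0.21, 95% interval -1.29 to -0.27). In limma its unadjusted p was 0.0103, which became 0.502 after Benjamini-Hochberg adjustment over all loci tested. It did not pass the test, and neither did any other locus, since 0.0% of the loci had an adjusted p under 0.05 while 1749 had an unadjusted p under 0.05. An unadjusted p under 0.05 with a lower level in *stk* was found for 3.53% of the loci and for 2 of the 8 members tested, *AMS* and *EXL4*. The annotation places a long noncoding RNA of the other strand over 440 bases of *AMS*, and the end of *UBC23* over 29 bases. Use of the strand in counting is not stated, so reads of such overlapping transcripts cannot be told apart from those of *AMS*.

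The late regulators were weakly expressed. *MYB80*, a MYB factor of tapetal function and breakdown (AT5G56110, chromosome 5, 22719191 to 22720664, plus strand), had 3.43 and 1.82 RPKM in wild type against 1.53 and 1.23 RPKM in *stk*, from 56 and 37 against 45 and 40 reads. The groups did not overlap, but the wild-type replicates differed from each other by more than wild-type replicate 2 differed from either *stk* library. Its log2 fold change was -0.57 (SE 0.24, adjusted p = 0.556, limma with Benjamini-Hochberg adjustment). *MS1*, a PHD-finger protein of the late tapetum and pollen wall (AT5G22260, chromosome 5, 7367635 to 7370295, minus strand), had 2.63 and 2.49 RPKM in wild type against 2.34 and 2.03 RPKM in *stk*. These groups did not overlap either, yet the log2 fold change was only -0.16 (SE 0.14, 95% interval -0.51 to 0.18). Among the 3 regulators tested the size of the difference thus ranged from -0.78 to -0.16.

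Among the secreted proteins, the transcript of *EXL4*, a lipase of the pollen coat that aids pollen hydration (AT1G75910, chromosome 1, 28501434 to 28503283, plus strand), was lower in both *stk* libraries. It had 307 and 214 RPKM in wild type against 189 and 128 RPKM in *stk*, from 5569 to 7490 reads in each library. The groups did not overlap, and the *stk* mean of 158 ± 43.5 RPKM was 0.608 times the wild-type mean. In RPKM, the wild-type replicates again differed by more than wild-type replicate 2 differed from either *stk* library. As a ratio this held only against *stk* replicate 1. The log2 fold change was -0.72 (SE 0.26, 95% interval -1.37 to -0.06), with an unadjusted p of 0.0367 in limma that became 0.515 after Benjamini-Hochberg adjustment. *ATA7* (AT4G28395, chromosome 4, 14043940 to 14044902, plus strand) had 106 and 85.4 RPKM in wild type against 81.9 and 55.8 RPKM in *stk*. Its groups were separated by a narrow gap between wild-type replicate 2 and *stk* replicate 1, and its log2 fold change was -0.49 (SE 0.23, 95% interval -1.06 to 0.08).

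The 2 other lipases of the list overlapped between the genotypes. *EXL5* (AT1G75920, chromosome 1, 28504452 to 28507168 for its main model, plus strand) had 27.8 and 15.7 RPKM in wild type against 19.4 and 13.2 RPKM in *stk*, that is a log2 fold change of -0.36 (SE 0.31, 95% interval -1.14 to 0.41). *EXL6* (AT1G75930, chromosome 1, 28508072 to 28509857, plus strand) had 93.8 and 69.7 RPKM in wild type against 80.4 and 55.7 RPKM in *stk*, that is a log2 fold change of -0.27 (SE 0.24, 95% interval -0.86 to 0.33). For both genes *stk* replicate 1 lay between the wild-type replicates. *EXL5* is also the only member with several gene models in the files. Model 4, the longest on the chromosome, held 67.5% and 86.0% of its reads in wild type and 80.3% and 78.9% in *stk*, and model 3 held 32.5% and 6.3% against 19.7% and 10.7%. The share of the models varied more between the wild-type replicates than between the genotypes.

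*A9*, a small tapetal protein whose promoter is widely used to direct expression to the tapetum (AT5G07230, chromosome 5, 2270965 to 2271610, plus strand), was unlike the other members tested. It had 30.8 and 23.9 RPKM in wild type, but 75.3 RPKM in *stk* replicate 1 and 18.4 RPKM in *stk* replicate 2, from 275, 265, 1210 and 326 reads. The *stk* replicates thus lay on both sides of the wild type, with a mean of 46.8 ± 40.2 RPKM. The log2 fold change of 0.45 had an SE of 0.61 and a 95% interval from -1.08 to 1.98 (adjusted p = 0.831, limma with Benjamini-Hochberg adjustment). Without *stk* replicate 1 it was -0.54, and without *stk* replicate 2 it was 1.44, each resting on a single *stk* library. *A9* has only 526 bases of exon. *stk* replicate 1 had 4.09 times the level of *stk* replicate 2 for *A9*, and a median of 2.38 times for the 401 loci tested within 100 bases of its length. Loci of up to 1110 bases, the shortest class when all are split by length into 5 of equal number, had a median of 0.32 in *stk* replicate 1 and between -0.15 and -0.07 elsewhere, as log2 relative to the mean over all libraries. With each library's trend against exon length removed, the log2 fold change of *A9* was -0.32. The part of transcript length in the value of *A9* was not tested further.

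**Figure D2:**
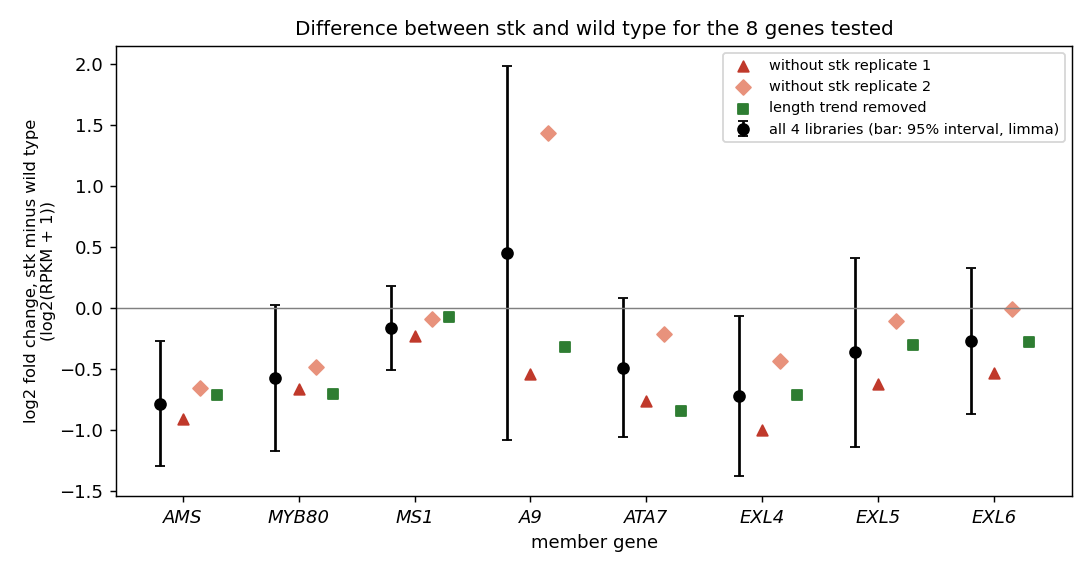
Log2 fold change (*stk* minus wild type, log2(RPKM + 1)) of the 8 genes tested, with all 4 libraries and the 95% interval of limma (black), without each *stk* library (red), and with the trend against exon length removed (green). The intervals of *AMS* and *EXL4* lie below 0, and *A9* changes from 1.44 to -0.54 with the *stk* library that is left out.

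Single libraries moved several of the other values by more than 1.5 times. Without *stk* replicate 2 the log2 fold change was -0.44 for *EXL4*, -0.21 for *ATA7*, -0.10 for *EXL5*, -0.01 for *EXL6* and -0.09 for *MS1*. Without wild-type replicate 1 it was -0.46 for *EXL4*, -0.25 for *MYB80*, 0.03 for *EXL5* and -0.06 for *EXL6*. Differences became larger by as much without *stk* replicate 1 for *ATA7* (-0.76), *EXL5* (-0.62) and *EXL6* (-0.53), and without wild-type replicate 2 for *MYB80* (-0.90), *EXL5* (-0.76) and *EXL6* (-0.48). *AMS* stayed between -1.02 and -0.55 with any 1 library left out.

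Over the 8 members tested, 7 had a lower and 1 a higher mean of log2 values in *stk*, with a median log2 fold change of -0.42 against -0.05 for all loci tested. Both *stk* libraries were below both wild-type libraries for 5 of the 8, *AMS*, *MYB80*, *MS1*, *ATA7* and *EXL4*, as for 26.8% of all loci. Both were above for 0 of the 8, as for 16.3% of all loci. By the study's thresholds, an unadjusted p of at most 0.05 together with a 2-fold difference of means, but with the p of limma in place of the Baggerley's test of the study, 0 members were lower and 0 were higher, against 0.326% of the loci lower and 3.1% higher. Those loci were 62 lower and 590 higher, and 149 and 267 with the length trend removed, which takes the share of higher calls from 90.5% to 64.2%. The smallest p that an exact permutation test (two-sided) can reach with n = 2 in each genotype is 0.33. Less tapetum in the tissue cannot be told apart from less RNA per tapetal cell.

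The replicates of a genotype also differed for these genes, and always in one direction. All 10 members were higher in wild-type replicate 1 than in replicate 2, as were 67.6% of the loci tested. All 10 were higher in *stk* replicate 1 than in replicate 2, as were 73.9%. The summed level of the members was 607 and 438 RPKM in wild type against 469 and 289 RPKM in *stk*. The sums of the genotypes overlapped, with *stk* replicate 1 above wild-type replicate 2. The sum differed 1.38-fold between the wild-type replicates and 1.62-fold between the *stk* replicates, where the median locus differed 1.08-fold and 1.10-fold. The *stk* mean of the sum was 0.726 times the wild-type mean. As a fold, this difference was no larger than that between the replicates of either genotype. For 6 of the 10 the values descended from wild-type replicate 1 through wild-type replicate 2 and *stk* replicate 1 to *stk* replicate 2, an order shown by 11.49% of the loci tested. That order is also the order of rising library totals, and its part in the difference between the genotypes was not tested.

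Ratios between members within a library were steadier than their levels for some pairs. The level of *EXL4* was 9.10 and 8.89 times that of *AMS* in wild type against 10.6 and 8.68 times in *stk*, so the genotypes overlapped. *EXL6* had 0.306 and 0.326 times the level of *EXL4* in wild type against 0.425 and 0.437 times in *stk*, without overlap. *ATA7* had 3.15 and 3.55 times the level of *AMS* in wild type against 4.61 and 3.80 times in *stk*, again without overlap. *EXL6* relative to *EXL4* and *ATA7* relative to *AMS* thus stood higher in *stk*. The second order depends on the scaling, since with the length trend removed the log2 fold change was -0.84 for *ATA7* and -0.71 for *AMS*. The level of *A9* relative to *ATA7* was 0.291 and 0.280 in wild type, close to the 0.330 of *stk* replicate 2, but 0.919 in *stk* replicate 1.

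The EXL lipase genes lie side by side on the plus strand of chromosome 1, in the order *EXL1* to *EXL6* between 28490443 and 28509881, followed by *ATA27*, a tapetum-expressed gene. The genes of this array did not all differ between the genotypes in the same direction. *EXL3*, directly upstream of *EXL4*, had 79.9 and 87.5 RPKM in wild type against 130 and 128 RPKM in *stk*, that is a log2 fold change of 0.62 (SE 0.14, unadjusted p = 0.00455 and adjusted p = 0.423 from limma). Its 2 replicates agreed closely in each genotype, and its level relative to *EXL4* was 0.261 and 0.409 in wild type against 0.687 and 1.01 in *stk*. *EXL2* was weakly expressed at 2.58 and 2.66 RPKM in wild type against 2.96 and 3.07 RPKM in *stk*. *EXL1* had 78.1 and 58.6 RPKM in wild type against 59.9 and 51.7 RPKM in *stk*, and its log2 fold change was -0.28. *ATA27* had 437 and 250 RPKM in wild type against 214 and 194 RPKM in *stk*, that is a log2 fold change of -0.70 (SE 0.28, adjusted p = 0.538 from limma). Thus *EXL2* and *EXL3* lay higher and *EXL4* and *ATA27* lower in both *stk* libraries, and *EXL1*, *EXL5* and *EXL6* overlapped. Among the members in the array, 14 of 1247 windows of 50 bases in *EXL4* and 14 of 1204 in *EXL5* lie within 2 mismatches of each other, so reads there can be shared. *EXL5* has 53 windows with an exact copy elsewhere in the genome, and the other members have 0. The remaining genes of the array were not searched in this way.

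**Figure D3:**
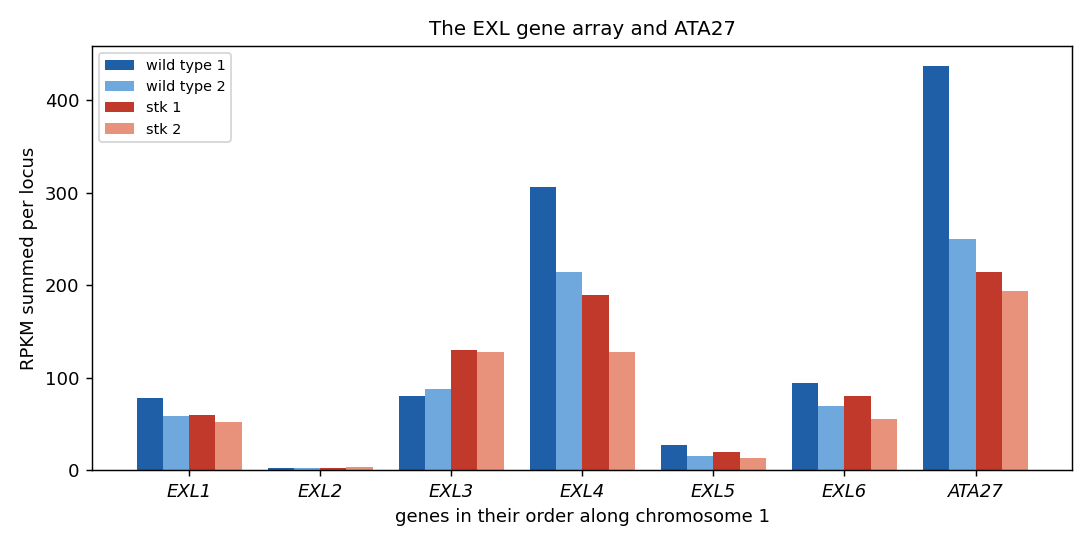
RPKM summed per locus of the genes of the EXL array and *ATA27*, in their order along chromosome 1, with 1 bar for each library. *EXL3* is higher in both *stk* libraries (130 and 128 RPKM) than in wild type (79.9 and 87.5 RPKM), while its neighbour *EXL4* is lower (189 and 128 against 307 and 214 RPKM).

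Other genes of the tapetal programme were described by the lists they belong to. Over all loci tested, 26.8% lay lower and 16.3% higher in *stk* without overlap. Of the genes for specification of the tapetum, 8 of 9 were tested, and 4 of them lay lower and 0 higher without overlap. Their log2 fold changes ran from -0.39 for *SPL/NZZ*, a regulator of sporogenous tissue, to 0.26 for *TPD1*, the ligand of the receptor kinase EMS1, with a median of -0.17. Of the bHLH partners and later regulators, 4 of 5 were tested and 2 lay lower without overlap, with a median of -0.51. *bHLH010*, a partner of DYT1 in Arabidopsis, had 11.9 and 8.50 RPKM in wild type against 6.90 and 5.48 RPKM in *stk* (log2 fold change -0.63), whereas *MYB99*, which lies downstream of MS1, overlapped between the genotypes (-0.24).

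Further tapetum-expressed genes comprised 6 loci, all tested. Of these, 4 lay lower and 0 higher without overlap, against 26.8% and 16.3% of all loci tested. An unadjusted p under 0.05 from limma with a lower level in *stk* was found for 3, against 3.53% of all loci tested. *ATA20*, among the most abundant transcripts of the tissue, had 1367 and 954 RPKM in wild type against 720 and 605 RPKM in *stk*, that is a log2 fold change of -0.79 (SE 0.22, adjusted p = 0.508 from limma). The smallest log2 fold change of the list, -0.29, belonged to *ATA1*, and the median was -0.58.

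The 8 genes for sporopollenin, the polymer of the outer pollen wall, all had negative log2 fold changes, from -0.64 for the hydroxylase gene *CYP704B1* to -0.21 for the polyketide synthase gene *PKSA*, with a median of -0.40. Only 2 of them lay lower without overlap, as did 26.8% of all loci tested. Their summed level was 450 and 210 RPKM in wild type against 261 and 210 RPKM in *stk*, so wild-type replicate 1 stood apart and replicate 2 did not exceed the *stk* libraries. Of the 6 glycine-rich oleosins of the pollen coat, 1 lay lower without overlap, with values from -0.62 for *GRP20* to 0.19 for *GRP14* and a median of -0.41. Their sum was again highest in wild-type replicate 1, at 3278 RPKM against 2078, 2155 and 1736 RPKM in wild-type replicate 2 and the *stk* replicates.

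**Figure D4:**
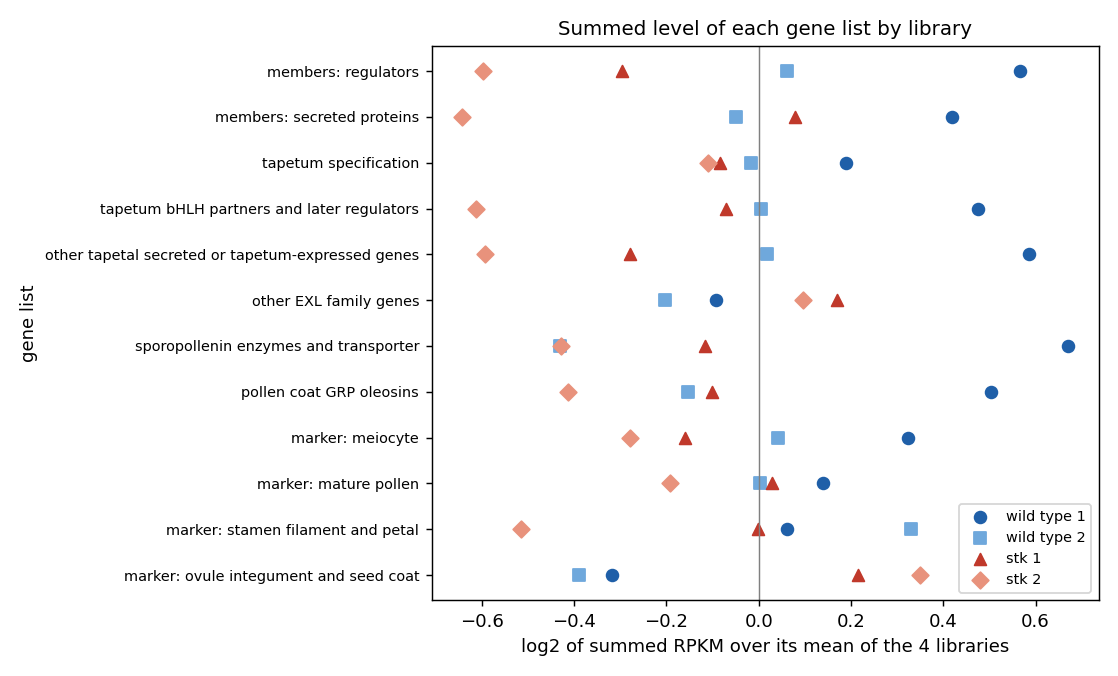
Summed RPKM of each gene list in each library, as log2 of the sum over its mean of the 4 libraries. Wild-type replicate 1 is the highest library for the members and for every other list of anther genes except the other EXL genes and the genes of filament and petal, and the *stk* libraries are the highest for the genes of ovule integument and seed coat.

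Markers of other cells in the tissue were measured beside the members. Without overlap, 26.8% of all loci tested lay lower and 16.3% higher in *stk*. Of 6 meiocyte markers, 2 were tested and both lay lower in *stk* without overlap (*DMC1* -0.40 and *SDS* -0.25). Those not tested, with means under 1 RPKM, mostly overlapped, and not all had a lower mean in *stk*. The list summed to 12.9 and 10.6 RPKM in wild type against 9.25 and 8.51 RPKM in *stk*, most of it from *DMC1*. Of 9 markers of mature pollen, 7 were tested, 4 lay lower and 0 higher without overlap, and values ran from -0.32 for *MYB101* to 0.31 for *HTR10*, with a median of -0.20. The 2 not tested, with means under 1 RPKM, lay higher in both *stk* libraries without overlap. The sum of all 9 was 779 and 709 RPKM in wild type against 721 and 619 RPKM in *stk*. The 2 genes of filament and petal had log2 fold changes of -0.44 (*MYB21*) and -0.40 (*MYB24*), with sums of 43.9 and 52.8 RPKM in wild type against 41.95 and 29.4 RPKM in *stk*. The *stk* mean of each of these 3 sums was below the wild-type mean, as for the members, and the part of these cells in the members' difference was not tested.

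The genes of ovule integument and seed coat differed in both directions. All 6 were tested, and 3 lay higher and 2 lower without overlap, against 16.3% and 26.8% of all loci tested. The median log2 fold change of the list was 0.14. The list, in which *BAN* was the most abundant gene, summed to 89.6 and 85.2 RPKM in wild type against 130 and 142 RPKM in *stk*. *BAN*, the anthocyanidin reductase gene of proanthocyanidin synthesis, had 36.9 and 39.8 RPKM in wild type against 77.4 and 89.8 RPKM in *stk* (log2 fold change 1.10). *TT12*, a transporter gene of the same pathway, had 5.69 and 6.26 RPKM in wild type against 13.1 and 15.0 RPKM in *stk* (log2 fold change 1.11). *BAN* and *TT12* met the thresholds above, with an adjusted p of 0.249 each from limma. The lowest of the list was *ANT*, a gene of integument growth, at -0.40. None of the markers of these lists was at 0 in any library.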

How the data were processed

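RNA-Seq libraries were made with the TruSeq kit and sequenced with 50 bp single reads. The authors mapped reads to TAIR10 in CLC Genomics Workbench with up to 2 mismatches, shared reads fitting up to 10 places in proportion to unique reads, and deposited RPKM values for 35182 gene models. They checked read quality with FastQC. Use of the strand is not given in the sources used here. Their tables of GO terms, with p and FDR of their own comparison, were not used.

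The RPKM of all models of a locus were added, and log2(RPKM + 1) of loci with a mean of at least 1 RPKM was compared with limma 3.58.1 (R 4.3.3, Benjamini-Hochberg adjustment). Other steps used Python 3.11.15, numpy 2.4.6, pandas 2.3.3, scipy 1.17.1 and matplotlib 3.10.9. Library totals were recovered from 4980 genes with 1 model, where between 98.4% and 98.6% of low values came out as whole reads (tolerance 0.05 reads). Read numbers, and the 95% Poisson intervals, rest on exon lengths of the TAIR10.1 annotation, in which 10 of the 13 member models have the same ends.

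All members and *STK* are named. Of the other lists, genes meeting the study's thresholds (with the p of limma) and the largest and smallest log2 fold change are named. *ATA27*, *EXL1* and *EXL2* were added, after their values were seen, to complete the array. The members and lists were chosen with earlier results of these data known. What separates the 2 biological replicates of a genotype is not stated beyond that name, and the p-values of the main fit measure the spread between them. Alternatives covered the pseudocount, filter, scaling, trend, model choice, length trend, Baggerley's test, a replicate block and the omission of single libraries. The filters, limma with trend, the replicate blocks and Baggerley's test reuse the log2 fold changes of the main fit. Their directions could not change, and the choice of model could change only that of *EXL5*. The fit was tested on simulated data.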

Additional observations from a re-analysis of the deposited data

How the results depend on the processing

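No member had an adjusted p under 0.05 with a pseudocount of 0.1, other filters, quantile normalization, median-ratio scaling, limma with trend, the most abundant model, the length trend removed or Baggerley's test. Of 120 values of single members under 15 alternatives, 113 kept their direction and their side of the threshold, 4 passed the threshold and 3 changed sign. These were *A9* at -0.32 with the length trend removed and -0.54 without *stk* replicate 1, and *EXL5* at 0.0334 without wild-type replicate 1. Filters, limma with trend, blocks and Baggerley's test could change no direction. *MYB80* made the count of members lower by the study's thresholds 1 under quantile normalization and 1 with the length trend removed.

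With a library left out, its genotype keeps a single library, so the p-values of these fits measure no spread within that genotype. Without *stk* replicate 1 these were *AMS* (0.0245) and *EXL4* (0.0109), and without *stk* replicate 2 it was *A9* alone. The log2 fold change of *A9* ran from -0.54 to 1.44 with a library left out, and that of *EXL5* from -0.76 to 0.0334. Members lower by these thresholds numbered 0 to 2 (*AMS* and *MYB80* without wild-type replicate 2, *MYB80* and *EXL4* without *stk* replicate 1) and members higher 0 to 1. Members without overlap numbered 5 to 8 lower and 0 to 1 higher. A genotype left with a single library overlaps the other less readily, so these counts cannot be set against that with all libraries. The shares of all loci without overlap, 26.8% lower and 16.3% higher, were not counted with a library left out. The median log2 fold change ran from -0.70 to -0.16, and was -0.64 without *stk* replicate 1, -0.70 without wild-type replicate 2 and -0.19 without wild-type replicate 1.

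Same-numbered libraries deviated from their group means with a correlation of -0.127 across 19044 loci, and the labels give the numbers no other meaning. With the replicate block 0 members and 0 loci had an adjusted p under 0.05, and 433 loci were higher and 63 lower by these thresholds. With the numbers crossed, an alternative added after seeing the data, 921 loci and 1 member (*AMS*, 0.0287) had an adjusted p under 0.05. That fit gave every member tested the same SE of 0.2419. Its p-values therefore do not measure the spread of each gene between its own replicates.

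Over all loci, 62 were lower by these thresholds, against 135 without a filter, 29 with at least 1 RPKM in every library, 111 under quantile normalization, 95 with the most abundant model, 149 with the length trend removed, and 89 to 173 with a library left out. The 590 higher became 267 with the length trend removed and 205 to 1215 with a library left out. Baggerley's test was rewritten here with a t distribution as reference, because the exact form in the software is not known. Proportions and library weights came from the summed RPKM of each library and not from its read total. The rewritten test found 5 higher and 1 lower and is not a rerun of the study's own test. Adjusted calls were 5 under quantile normalization, 4 with the length trend removed, 1 with trend, 336 without *stk* replicate 1 and 1575 without *stk* replicate 2. *DYT1* and *TDF1* had few reads, and their log2 fold changes without a filter were 0.08 and -0.39 (adjusted p = 0.930 and 0.607 from limma).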
